A study of Cricetulus griseus with 24 samples.

Results

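The 39 genes described here act in DNA replication and in the step from G1 to S phase of the cell cycle. They were listed by name, with earlier results of these data known. Each was taken by its gene name from the count tables of both experiments, which hold 26776 gene names. All 39 were present and all 39 passed the filter on low counts, among 13106 genes tested in the first experiment and 13050 in the second. They comprise 8 genes for E-type cyclins, E2F factors and origin licensing, 10 for the replicative helicase, 12 for primase, clamp, clamp loader, single-strand binding, flap removal and ligation, 5 for nucleotide supply and uracil removal, and 4 for chromatin assembly and histone mRNA.

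Cells commit to S phase when cyclin E and its kinase partner release E2F transcription factors from the retinoblastoma protein, and E2F then switches on many of the genes in this list. In G1 the origin recognition complex, Cdc6 and Cdt1 load the ring of MCM proteins onto DNA, a step called licensing, and in S phase Cdc45 and the GINS complex turn that ring into the active helicase. Primase starts each new strand, the clamp loader places the sliding clamp PCNA, and ribonucleotide reductase and thymidylate synthase supply deoxynucleotides.

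RNA was sequenced from LR73 phagocytes, a Chinese hamster line of fibroblast-like cells that take up apoptotic cells. The corpses came from the human T cell line Jurkat, exposed to ultraviolet C light at 1500 mJ and then cultured for 4 h. In the first experiment, there were 4 groups of 4 libraries. They were given cytochalasin D and apoptotic cells together, cytochalasin D alone, apoptotic cells alone, or neither (control). Cytochalasin D caps actin filaments, which phagocytes need to engulf a corpse. In the second experiment, Slc12a2-deficient phagocytes and wildtype phagocytes, 4 libraries each and numbered 9 to 16 in all, were all given apoptotic cells for 2 h, and the cells carrying the acid-sensitive dye CypHer5E, a mark of engulfed corpses, were sorted. The labels do not say how Slc12a2 was removed or whether the deficient cells are 1 clone, and they give no dose of cytochalasin D and no co-culture time for the first experiment. The replicates are called biological replicates by the submitters. The sample titles of the first experiment all carry the same date-like number. Whether its replicates were separate repeats or parallel cultures of the same day is not known here. Slc12a2-deficient cells without corpses were not analysed here.

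Levels are given in CPM, counts scaled to a library total of 1000000 after TMM, a correction for library composition. Changes are log2 ratios from edgeR's quasi-likelihood test with its standard error (SE), and a gene is called higher or lower where its p, adjusted by Benjamini and Hochberg over all genes tested, was under 0.05. The first experiment had 8272232 to 18911353 counted fragments per library, and the second had 22758587 to 28450594. Slc12a2 was at 25.3, 22.4, 24.7 and 26.1 CPM in the deficient libraries, against 93.4, 91.2, 99.5 and 103 CPM in the wildtype libraries (log2 -1.97, SE 0.059, adjusted p = 1.14e-12). Of 11 fibroblast markers, Vim and Fn1 were abundant, while Col1a1, Col1a2, Thy1 and Lum averaged at most 0.479 CPM in every group. In the first experiment, cytoD library 1, control library 4 and apoptotic + cytoD library 4 stood apart on the third principal component, which held 10.4% of the variance.

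Per kilobase of exon, the length the authors' tables give, the order of the 39 genes in control phagocytes ran from Pcna, the sliding clamp, at 390.2 ± 15.8 CPM per kb (SD, n = 4), to the transcription factor E2f2, at 4.15 ± 0.786 CPM per kb. Tyms, the thymidylate synthase, followed Pcna at 187 ± 6.55 CPM per kb, and the helicase subunits Mcm3, Mcm7 and Mcm5 came next at 160.1 ± 4.14, 138 ± 1.92 and 137 ± 5.04 CPM per kb. Mcm7 and Mcm5 overlapped, and so did 21 of the 38 pairs of neighbours in this order. At the low end, Gins2 of the GINS complex stood at 6.28 ± 0.424 and Ccne1, cyclin E1, at 9.90 ± 1.05 CPM per kb. In the wildtype cells of the second experiment, which were normalized separately, the order also ran from Pcna at 473 ± 16.6 to E2f2 at 1.88 ± 0.213 CPM per kb, and 22 of 38 neighbouring pairs overlapped.

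The first comparison sets cytochalasin D against control, the effect of blocking actin with no corpses present. Of the 39 genes, 30 were called lower and 0 higher, where 12.8% of all genes tested were called lower and 13.5% higher. The median log2 change over the 39 genes was -0.318, against 0.00883 over all genes tested. Summed over the 39 genes, the level was 3841 to 3956 CPM in the cytochalasin D libraries, against 4866 to 4987 CPM in control, with no overlap. These are bulk cultures, so fewer cells in S phase and less RNA of these genes per cell cannot be told apart.

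All 8 genes for cyclins, E2F and licensing were lower with cytochalasin D. Ccne2, cyclin E2, was at 13.8, 14.2, 16.5 and 17.5 CPM with cytochalasin D, against 47.4, 38.5, 39.5 and 44.2 CPM in control (log2 -1.45, SE 0.091, adjusted p = 1.94e-11). Ccne1, cyclin E1, which like cyclin E2 activates the kinase Cdk2, was at 6.87, 7.93, 6.64 and 7.65 CPM with cytochalasin D, against 15.6, 16.2, 14.9 and 18.9 CPM in control (log2 -1.17, SE 0.11, adjusted p = 1.45e-08). Both cyclins had every treated library below every control library. Cdc6, a licensing ATPase, was at 29.2, 28.3, 27.4 and 22.3 CPM with cytochalasin D, against 54.1, 55.3, 51.0 and 47.6 CPM in control (log2 -0.96, SE 0.073, adjusted p = 5.11e-10). E2f2 was at 14.6, 13.5, 9.25 and 8.28 CPM with cytochalasin D, against 16.0, 21.9, 14.8 and 15.7 CPM in control (log2 -0.60, SE 0.16, adjusted p = 0.00781). The groups did not overlap for Cdc6 or E2f2, although the highest treated library of E2f2 lay close to the lowest control. The remaining 4 genes, the origin recognition subunits Orc1 and Orc6, the MCM loader Cdt1 and E2f1, had log2 changes of -0.52, -0.32, -0.46 and -0.35, and Orc6 was the 1 of the 8 whose groups overlapped.

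The uracil glycosylase Ung, which cuts uracil out of DNA, had the largest change of the 39 genes in this comparison. Ung was at 11.7, 13.9, 16.1 and 17.2 CPM with cytochalasin D, against 43.3, 42.4, 44.3 and 46.0 CPM in control, a 2.97-fold lower level (log2 -1.57, SE 0.098, adjusted p = 1.65e-11). Every treated library lay far below every control library. Dut, the enzyme that keeps dUTP low and so limits uracil entry, was lower to a lesser degree, at log2 -0.28 (SE 0.060, adjusted p = 0.00106). Rrm2, the small subunit of ribonucleotide reductase, was at 154, 148, 143 and 151 CPM with cytochalasin D, against 263, 249, 255 and 248 CPM in control (log2 -0.77, SE 0.040, adjusted p = 5.31e-13). Rrm1, the large subunit of the same enzyme, was lower at log2 -0.17 (SE 0.041, adjusted p = 0.00264), so the level of Rrm2 per kilobase was 0.873 ± 0.00980 times that of Rrm1 with cytochalasin D, against 1.32 ± 0.0169 times in control (SD, n = 4), with no overlap. Tyms completed the set of 5, all lower, at log2 -0.23 (SE 0.035, adjusted p = 2.5e-05).

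**Figure D1:**
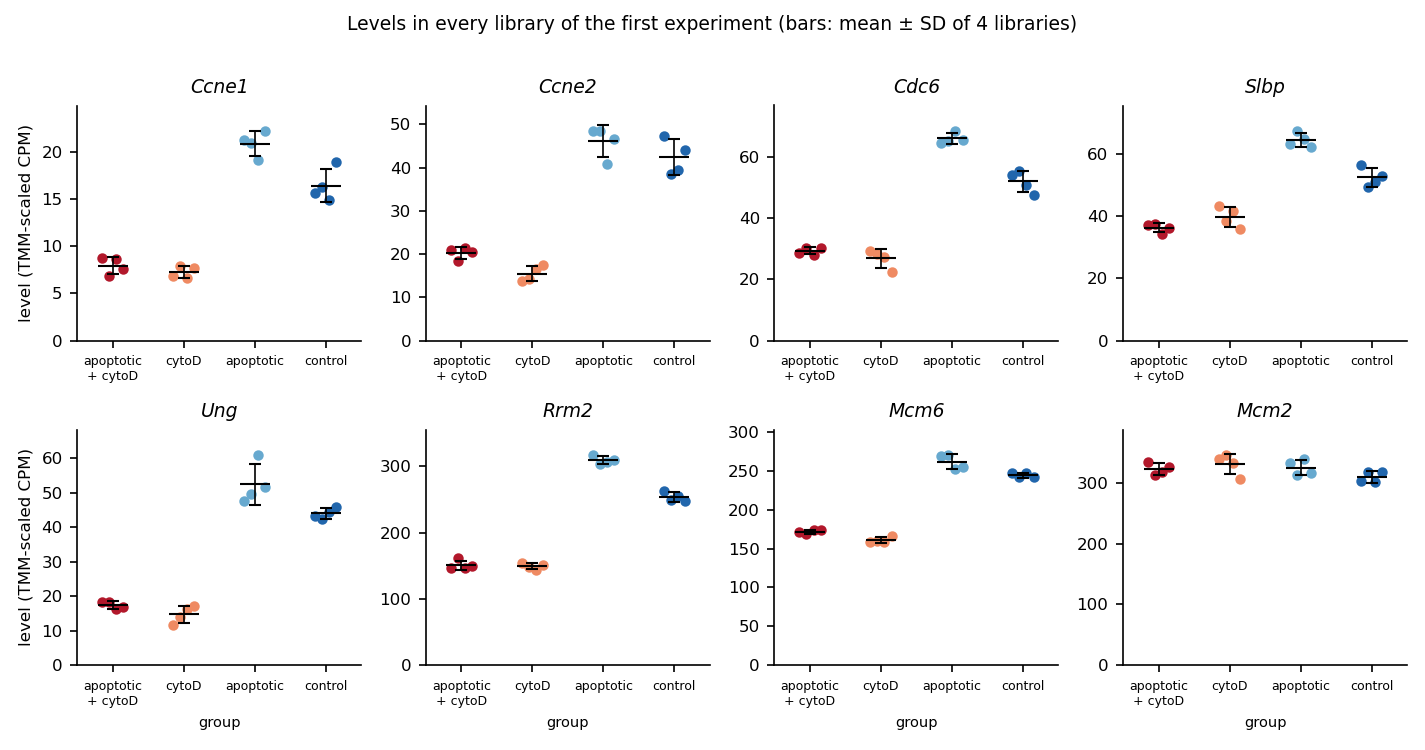
Level of 8 genes in every library of the first experiment, in TMM-scaled CPM on linear axes that start at 0, with points for libraries and bars for mean ± SD of 4. Ung, Ccne1, Ccne2, Cdc6, Slbp, Rrm2 and Mcm6 were lower in both cytochalasin D groups than in the groups without it, and Mcm2 lay between 301 and 347 CPM in all 16 libraries.

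The helicase subunits differed among themselves, as the Mcm6 and Mcm2 panels of the plot of levels by library show. Of the 10 helicase genes, 6 were lower with cytochalasin D. Mcm6 had the largest change among them, at 159, 159, 159 and 166 CPM with cytochalasin D, against 247, 242, 247 and 242 CPM in control (log2 -0.60, SE 0.036, adjusted p = 8.52e-12). Mcm3, Mcm4, Mcm5 and Mcm7, which share the MCM ring with it, were lower by 1.34-, 1.33-, 1.21- and 1.20-fold. The remaining subunit of the ring, Mcm2, was singled out after its values were seen. Mcm2 was at 339.7, 347, 334 and 308 CPM with cytochalasin D, against 303, 319, 301 and 318 CPM in control, overlapping groups whose difference did not pass the test (log2 0.097, unadjusted 95% interval 0.017 to 0.18, adjusted p = 0.0871). Without cytoD library 4 it passed as higher. The MCM ring holds 1 copy of each subunit, and per kilobase Mcm2 made up 15.0% ± 0.649 of the summed Mcm2 to Mcm7 level with cytochalasin D, against 11.3% ± 0.168 in control (SD, n = 4), with no overlap between the groups. Mcm10, which helps start the helicase, was lower at log2 -0.22, and Cdc45, Gins1 and Gins2 did not pass the test, with log2 changes of -0.080, -0.15 and -0.27.

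Of the 12 genes for priming, the clamp and strand completion, 7 were lower with cytochalasin D. Prim1, the catalytic subunit of primase, was lower at log2 -0.47 (SE 0.10, adjusted p = 0.00114), and Pola2, a subunit of the polymerase that works with it, at -0.33 (SE 0.062, adjusted p = 0.000258). Pcna, the clamp, averaged 269.9 ± 11.5 CPM with cytochalasin D and 347 ± 14.1 CPM in control (SD, n = 4; log2 -0.36, adjusted p = 1.7e-07). The single-strand binding genes Rpa1 and Rpa2 and the flap nuclease Fen1 were lower by 1.16-, 1.24- and 1.19-fold. Of 4 clamp loader genes, Rfc4 was lower (log2 -0.24, SE 0.074, adjusted p = 0.0169), and Rfc2, Rfc3 and Rfc5 did not pass, with log2 changes of -0.059, -0.25 and -0.045. Pola1, the catalytic subunit of polymerase alpha, and Lig1, the ligase that joins the lagging strand, did not pass either, at log2 -0.18 and -0.12.

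All 4 chromatin and histone mRNA genes were lower with cytochalasin D. Chaf1b, a subunit of the chromatin assembly factor that places histones behind the fork, was at 24.8, 23.4, 21.3 and 20.4 CPM with cytochalasin D, against 39.6, 36.2, 41.2 and 31.1 CPM in control (log2 -0.73, SE 0.084, adjusted p = 4.44e-07). Its partner Chaf1a, the histone mRNA binding protein Slbp and Uhrf1, which recruits the maintenance DNA methyltransferase, were lower by 1.40-, 1.32- and 1.25-fold. The groups did not overlap for any of the 4 genes.

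**Figure D2:**
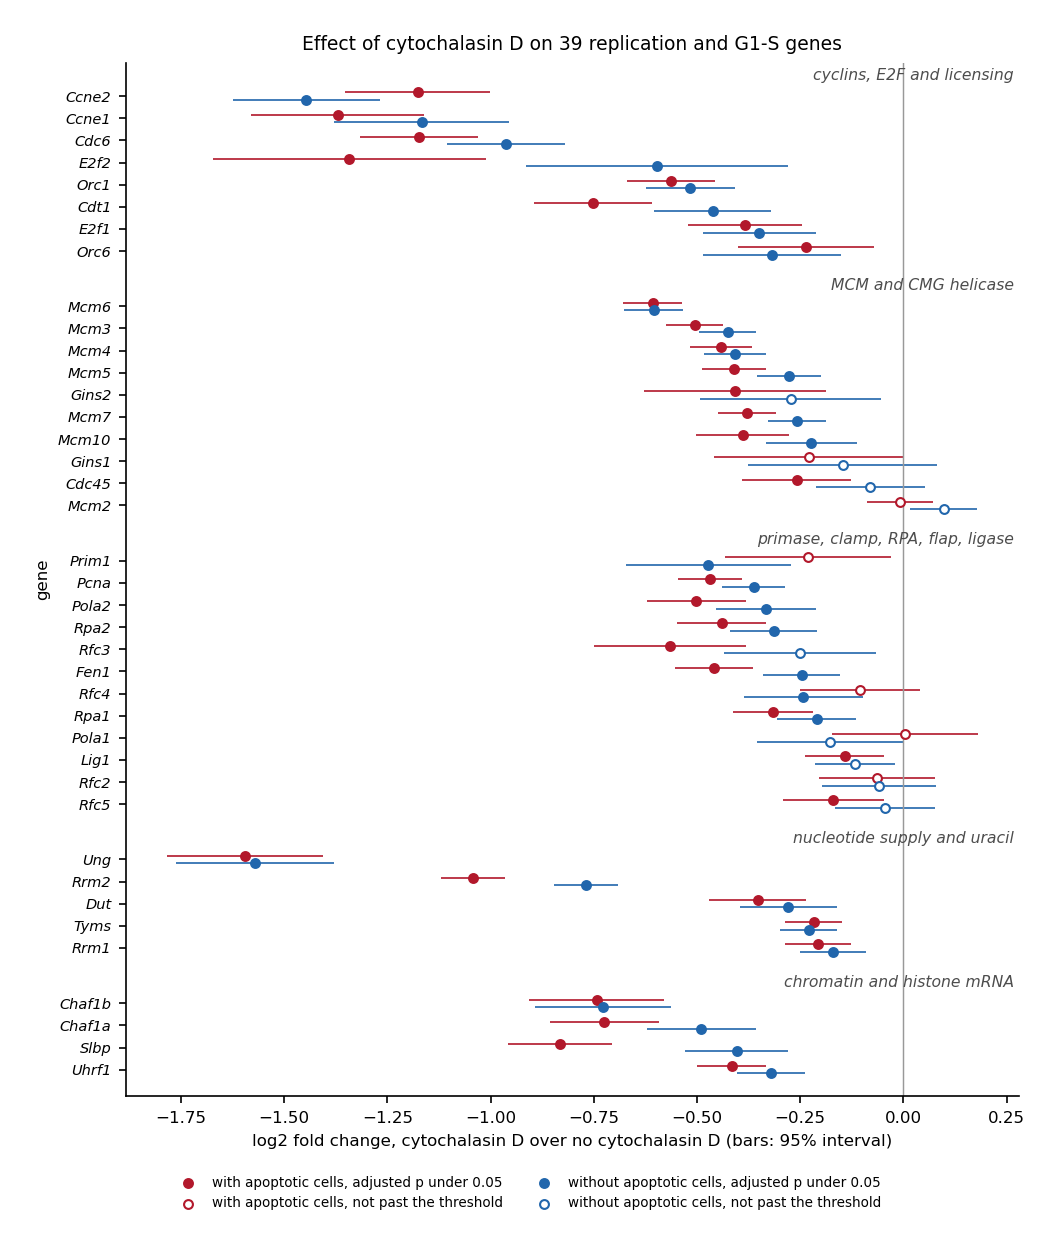
Log2 fold change of each of the 39 genes with cytochalasin D, in the presence of apoptotic cells (red) and in their absence (blue), grouped by role, with 95% intervals. Filled points passed an adjusted p of 0.05, which 33 genes did with apoptotic cells and 30 did without them, and all of these lie left of 0.

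Cytochalasin D was also compared with its absence when apoptotic cells were present. None of these libraries served in the comparison above, although all 4 groups were fitted together with a shared estimate of the spread. With corpses present the drug also blocks their uptake. An effect of the drug itself and a loss of the response to uptake cannot be told apart in this comparison. Of the 39 genes, 33 were called lower and 0 higher, where 16.1% of all genes were called lower and 16.4% higher. The median log2 change of the 39 genes was -0.416, against -0.00204 over all genes tested. Across the 39 genes, the log2 changes of the comparisons with and without corpses had a Pearson correlation of 0.891 and a Spearman correlation of 0.871, a description over genes that share libraries and are not replicates. Both comparisons called 28 genes lower. Over all genes tested, the share lower in both was not counted, but it cannot exceed the 12.8% called lower without corpses. Of the 39 genes, 4 were lower in neither. The 4 were Mcm2, Gins1, Pola1 and Rfc2, and Prim1 and Rfc4 were called in the absence of corpses alone.

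Rrm2 was at 146, 161, 146 and 149 CPM with cytochalasin D and apoptotic cells, against 317, 304, 307 and 309 CPM with apoptotic cells alone (log2 -1.04, SE 0.040, adjusted p = 1.72e-15). Ung was at 18.2, 18.4, 16.3 and 16.7 CPM with both, against 47.5, 49.7, 60.9 and 51.7 CPM with apoptotic cells alone (log2 -1.60, SE 0.097, adjusted p = 7.58e-12). Neither gene had overlapping groups. Slbp was at 37.2, 37.5, 34.2 and 36.2 CPM with both, against 63.3, 67.6, 64.8 and 62.5 CPM with apoptotic cells alone (log2 -0.83, SE 0.064, adjusted p = 5.41e-10). E2f2 was at 9.22, 7.85, 6.53 and 7.97 CPM with both, against 22.9, 16.98, 21.9 and 18.8 CPM with apoptotic cells alone (log2 -1.34, SE 0.17, adjusted p = 1.43e-06). Slbp and E2f2 also had every library with cytochalasin D below every library without it. Ccne1, Ccne2, Cdc6 and Cdt1 were lower by 2.59-, 2.26-, 2.26- and 1.68-fold, with adjusted p of 6.04e-10, 3.77e-10, 1.11e-11 and 2.19e-08. The share of Mcm2 in the Mcm2 to Mcm7 level per kilobase was 14.9% ± 0.197 with both, against 11.3% ± 0.281 with apoptotic cells alone (SD, n = 4), again without overlap, while Mcm2 itself differed by log2 -0.0078 (95% interval -0.088 to 0.073, adjusted p = 0.908). Cdc45, Gins2, Rfc3, Rfc5 and Lig1 were called lower here, with log2 changes from -0.56 to -0.14, and were not called in the comparison without corpses.

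All 30 genes lower without corpses passed the test with each library left out in turn. With corpses, 30 of 33 genes did, and Orc6, Rfc5 and Lig1 lost their calls, at adjusted p up to 0.110, 0.214 and 0.0890. Those calls went without apoptotic library 1 for Orc6 and Lig1, 2 for Orc6 and 3 for all of them, and without apoptotic + cytoD library 1 or 2 for Rfc5, 3 for all of them and 4 for Orc6 and Lig1. With no filter on low counts the same 3 genes lost their calls. Without the 3 libraries that stood apart, left out after seeing the data, Rfc4 lost its call without corpses, and Rfc5 and Lig1 lost theirs with corpses.

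Other genes of the same processes were counted from lists of genes outside the 39. These lists, and those of G1 control and mitosis below, were chosen with earlier results of these data known. Their counts, here and in the later comparisons, are therefore a description and not independent support. Of 17 further polymerase and fork genes tested, 13 were lower and 0 higher with cytochalasin D against control. Dna2, a nuclease of flap processing, was 1.82-fold lower (adjusted p = 2.19e-06). Of 13 genes of replication-linked repair, 9 were lower and 1 higher, with the mismatch repair gene Msh6 lower by 1.68-fold and Brca1 higher by 1.09-fold. Of 13 initiation control genes, 6 were lower and 1 higher, and the kinase activator Dbf4 was the 1 that was higher (1.17-fold, adjusted p = 0.0307). Of 9 other licensing and helicase genes, 6 were lower and 1 higher, and Gins3, a partner of Gins1 and Gins2, was the 1 that was higher (1.37-fold, adjusted p = 0.000204). Of 8 other nucleotide supply genes 6 were lower, and of 9 other chromatin and histone supply genes 5 were lower, with 0 higher in either list.

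Genes that control G1 and genes of mitosis were counted beside them. Of 18 G1 control genes tested, 8 were lower and 2 higher with cytochalasin D. Cdkn1a, the inhibitor p21 that blocks cyclin kinases, was 1.74-fold higher (adjusted p = 7.41e-09), and Ccnd1, cyclin D1, which acts ahead of cyclin E, was 1.45-fold lower (adjusted p = 5.24e-05). Of 29 mitotic genes tested, 4 were lower and 5 higher, and the mitotic kinase Cdk1 did not pass the test (log2 -0.028, adjusted p = 0.678). The summed mitotic level was 4660 to 5007 CPM with cytochalasin D, against 4776 to 4935 CPM in control, ranges that overlap. The summed level of 11 fibroblast markers was 4474 to 5119 CPM with cytochalasin D, against 5535 to 6092 CPM in control. Most of this difference was Vim, at 3276 ± 300 CPM with cytochalasin D and 4330 ± 191 CPM in control (SD, n = 4). Of 7 fibroblast markers tested, Vim was the 1 called lower and 0 were higher, and Sparc averaged 368 CPM with cytochalasin D and 371 CPM in control. The part of these markers in the changes of the 39 genes was not tested. With corpses present, the drug comparison gave 12 of 17 polymerase and fork genes lower and 0 higher, Cdkn1a 1.54-fold higher and Ccnd1 1.34-fold lower, and 5 of 29 mitotic genes lower and 5 higher. It gave 9 of 13 initiation control genes lower and 1 higher, 2 of 9 other licensing genes lower and 1 higher, 6 of 13 repair genes lower and 1 higher, and 9 of 18 G1 control genes lower and 2 higher. Other nucleotide supply genes were lower in 5 of 8 cases and other chromatin genes in 6 of 9, with 0 higher.

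Apoptotic cells were compared with control to measure what contact with and uptake of corpses does to the phagocytes. In this comparison 7 of the 39 genes were called higher and 0 lower, where 6.97% of all genes were called higher and 6.68% lower. The median log2 change of the 39 genes was 0.0945, against 0.00298 over all genes tested. Summed over the 39 genes, the level was 5148 to 5313 CPM with apoptotic cells, against 4866 to 4987 CPM in control, with no overlap.

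The 7 genes rose by 0.22 to 0.35 on the log2 scale. Rrm2 was at 317, 304, 307 and 309 CPM with apoptotic cells, against 263, 249, 255 and 248 CPM in control (log2 0.29, SE 0.039, adjusted p = 2.62e-05). Cdc6 was at 64.6, 65.2, 68.5 and 65.6 CPM with apoptotic cells, against 54.1, 55.3, 51.0 and 47.6 CPM in control (log2 0.34, SE 0.068, adjusted p = 0.00185). Slbp was at 63.3, 67.6, 64.8 and 62.5 CPM with apoptotic cells, against 56.7, 49.5, 51.1 and 53.1 CPM in control (log2 0.29, SE 0.062, adjusted p = 0.00263). For these genes, every library with apoptotic cells lay above every control library. Pola2 was at 72.0, 65.3, 66.1 and 67.1 CPM with apoptotic cells, against 54.7, 54.0, 58.9 and 58.0 CPM in control (log2 0.26, SE 0.060, adjusted p = 0.00532). Ccne1 was at 21.3, 20.9, 19.1 and 22.2 CPM with apoptotic cells, against 15.6, 16.2, 14.9 and 18.9 CPM in control (log2 0.35, SE 0.098, adjusted p = 0.0191). Cdt1 was at 58.4, 58.2, 68.1 and 61.5 CPM with apoptotic cells, against 51.4, 52.7, 53.9 and 50.6 CPM in control (log2 0.24, SE 0.070, adjusted p = 0.0238). Pola2, Ccne1 and Cdt1 also had groups that did not overlap, with the narrowest gap for Ccne1. Chaf1a was at 125, 117, 141 and 132 CPM with apoptotic cells, against 105, 117, 102 and 119 CPM in control, and its groups overlapped (log2 0.22, SE 0.066, adjusted p = 0.0269).

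Rrm2, Cdc6, Slbp and Pola2 passed the test with each library left out in turn. Ccne1, Cdt1 and Chaf1a did not. Ccne1 lost its call without apoptotic library 4, control library 1 or control library 3, at adjusted p up to 0.0644. The count was 4 without apoptotic library 4. Cdt1 lost its call without apoptotic library 3 or 4 or control library 1 or 4, at adjusted p up to 0.115. Chaf1a lost its call without apoptotic library 3 or 4 or control library 1 or 3, at adjusted p up to 0.119. No helicase gene was called, and the 10 of them had log2 changes between 0.0307 and 0.16. The 12 priming, clamp and strand completion genes, of which Pola2 alone was called, had a median log2 change of -0.0426.

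T cell markers were measured as a sign of corpse RNA. The summed level of 16 T cell markers was 42.3 to 45.5 CPM with apoptotic cells, against 34.8 to 37.2 CPM in control. Most of the sum was Tcf7 and Lat, which averaged 23.0 ± 0.975 and 11.1 ± 1.36 CPM with apoptotic cells, against 23.7 ± 0.843 and 11.0 ± 1.19 CPM in control, where no corpses were added. The kinases Lck and Zap70 averaged 3.20 ± 0.276 and 3.35 ± 1.41 CPM with apoptotic cells, against 0.0259 ± 0.0518 and 0.013 ± 0.0259 CPM in control (SD, n = 4), and 4 of the 16 markers were at 0 with apoptotic cells, against 9 in control. Under cytochalasin D the same sum was 41.3 to 46.7 CPM with apoptotic cells, against 30.8 to 37.0 CPM without them, and 3 markers were at 0 with apoptotic cells, against 10 without. The part of these markers' source in the changes of the 39 genes was not tested. Of 29 mitotic genes, 11 were called higher and 0 lower with apoptotic cells, led by Kif23, a kinesin of cell division (1.38-fold, adjusted p = 9.71e-08). Of the 18 G1 control genes, 4 were higher and 5 lower. Among the higher were the cyclin kinase inhibitors Cdkn1a, Cdkn2d and Cdkn2c, by 1.16-, 1.28- and 1.20-fold (adjusted p = 0.0449, 0.0218 and 0.0466). Among the lower was Rb1, the retinoblastoma protein, by 1.28-fold (adjusted p = 0.0235). Over the remaining lists of replication genes, at most 1 gene per list was called in either direction.

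With cytochalasin D in both groups, the comparison of corpses with no corpses concerns contact when actin is blocked. Of the 39 genes, 2 were called higher and 1 lower, where 4.82% of all genes were called higher and 3.79% lower, so the share of the 39 was near that of all genes. The median log2 change of the 39 genes was -0.00956, against -0.00706 over all genes tested. Ccne2 was at 20.9, 18.4, 21.4 and 20.4 CPM with cytochalasin D and apoptotic cells, against 13.8, 14.2, 16.5 and 17.5 CPM with cytochalasin D alone (log2 0.39, SE 0.097, adjusted p = 0.0124). Orc6 was at 25.7, 26.7, 23.2 and 25.4 CPM with both, against 23.9, 20.8, 18.1 and 20.3 CPM with cytochalasin D alone (log2 0.28, SE 0.086, adjusted p = 0.0439). Rpa2 was at 70.6, 78.1, 69.7 and 78.8 CPM with both, against 85.0, 84.6, 89.5 and 90.3 CPM with cytochalasin D alone (log2 -0.24, SE 0.055, adjusted p = 0.00756). The groups did not overlap for Ccne2, which was higher with corpses, or for Rpa2, which was lower, and they overlapped for Orc6. Of 29 mitotic genes 7 were higher and 0 lower, of 18 G1 control genes 0 were higher and 4 lower, and the other replication lists had at most 1 call each. The Rpa2 call held with each library left out. The Ccne2 call was lost without cytoD library 2 (adjusted p = 0.0513) and without the 3 libraries that stood apart, and the Orc6 call without cytoD library 2, 3 or 4 or apoptotic + cytoD library 1, 2 or 4 (adjusted p up to 0.152).

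**Figure D3:**
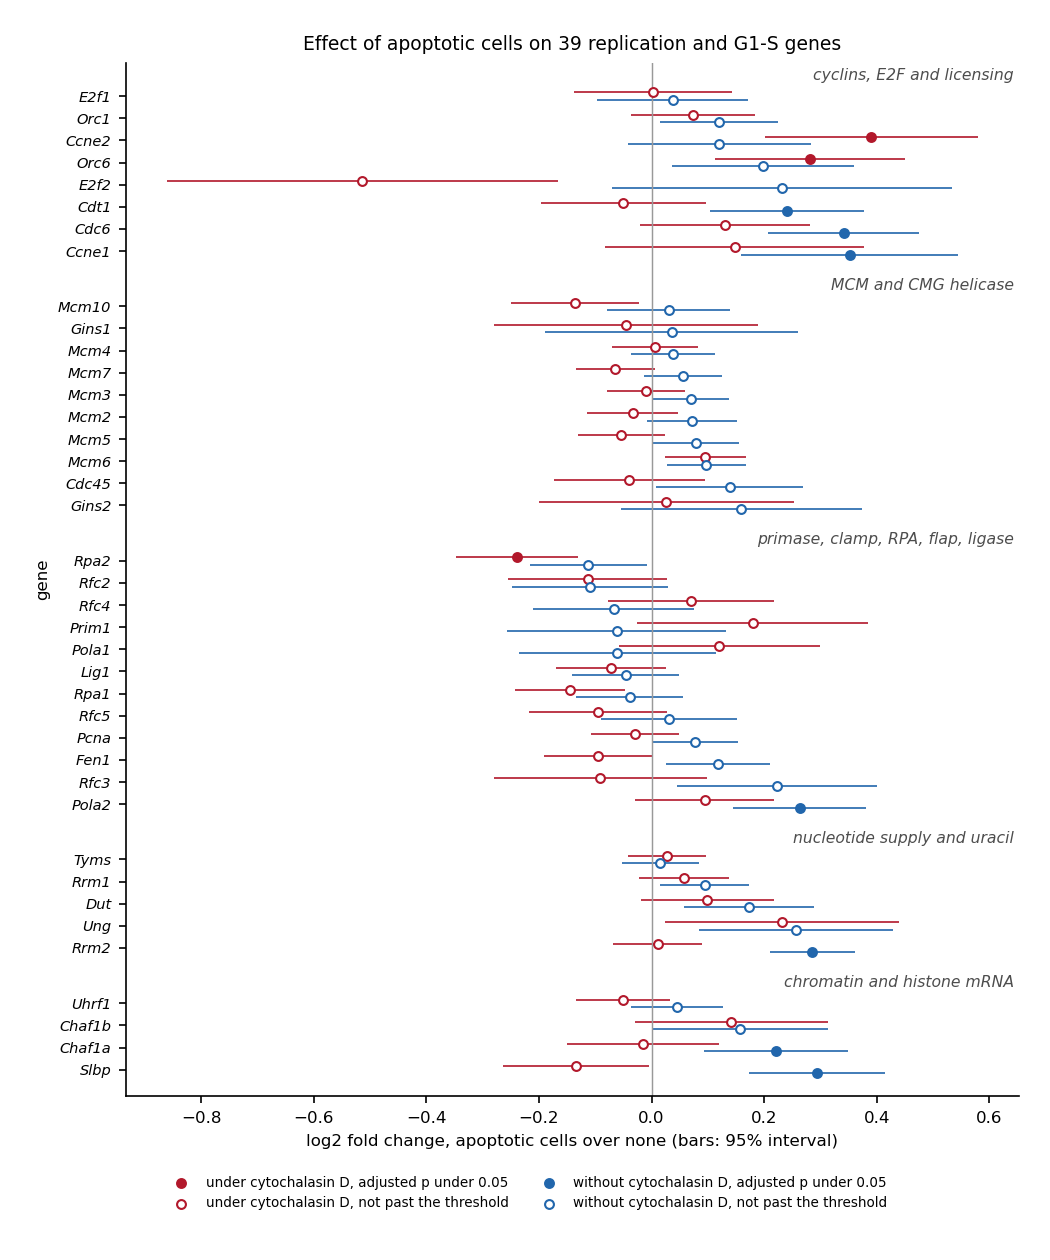
Log2 fold change of each of the 39 genes with apoptotic cells, under cytochalasin D (red) and without it (blue), grouped by role, with 95% intervals. Without the drug 7 genes passed an adjusted p of 0.05, all higher, and under it Ccne2 and Orc6 passed as higher and Rpa2 as lower.

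The difference between these corpse effects was tested as an interaction over all 16 libraries, with the effect under cytochalasin D minus the effect without it. A lower difference was called for 2 of the 39 genes and a higher one for 0, where 1.53% of all genes were called lower and 3.03% higher. Slbp had a difference of log2 -0.43 (SE 0.091, adjusted p = 0.00981), with a corpse effect of -0.13 under cytochalasin D and 0.29 without it. Rrm2 had a difference of log2 -0.27 (SE 0.056, adjusted p = 0.00745), with a corpse effect of 0.011 under cytochalasin D and 0.29 without it. Both genes rose with corpses without the drug and did not pass the test under it. The plot of corpse effects shows the red point left of the blue one for 33 of the 39 genes, most of which did not pass the test. The share of all genes with that direction was not counted. The median difference was -0.105 over the 39 genes, against -0.0153 over all genes tested. By DESeq2, Fen1 and E2f2 also had a lower difference, and E2f2 alone was added with no filter on low counts. The count was 7 without cytoD library 4, which added Cdc6, Cdt1, Mcm5, Fen1 and E2f2. Without the 3 libraries that stood apart, a choice made after seeing the data, the differences were -0.39 for Slbp and -0.24 for Rrm2 and neither passed (adjusted p = 0.0724 and 0.0748).

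Slc12a2-deficient phagocytes were compared with wildtype phagocytes among cells that had taken up corpses. Of the 39 genes, 17 were called higher and 1 lower, where 21.1% of all genes were called higher and 21.3% lower. The median log2 change of the 39 genes was 0.131, against -0.00178 over all genes tested. Summed over the 39 genes, the level was 5403 to 5641 CPM in the deficient libraries, against 5056 to 5230 CPM in wildtype, with no overlap. Among the T cell markers, Lck was at 0.0495 ± 0.0578 CPM in deficient cells and 0.0585 ± 0.0681 CPM in wildtype cells (SD, n = 4), and Zap70 was at 0 in both. The summed level of the 16 markers was 23.3 to 28.1 CPM in deficient cells, against 29.5 to 32.2 CPM in wildtype cells. Lat averaged 4.66 ± 0.707 CPM in deficient cells and 10.8 ± 1.11 CPM in wildtype cells, and Cd28 averaged 1.36 ± 0.202 CPM in deficient cells and 3.91 ± 0.775 CPM in wildtype cells. Tcf7 averaged 18.5 ± 1.44 CPM in deficient cells and 16.1 ± 0.980 CPM in wildtype cells. The part of these markers in the changes below was not tested.

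Of the 8 cyclin, E2F and licensing genes, 5 were higher in the deficient cells. Ccne1 was at 9.44, 8.81, 8.22 and 7.72 CPM in the deficient libraries, against 5.73, 5.79, 6.05 and 4.88 CPM in wildtype (log2 0.61, SE 0.099, adjusted p = 0.000147). E2f1 was at 39.2, 42.5, 43.7 and 37.7 CPM in the deficient libraries, against 33.2, 31.6, 29.7 and 29.5 CPM in wildtype (log2 0.40, SE 0.062, adjusted p = 0.000104). Neither gene had overlapping groups. Ccne2, Cdt1 and Orc1 were higher by 1.15-, 1.10- and 1.09-fold, and Cdc6, at log2 -0.0017 (95% interval -0.10 to 0.098), Orc6 and E2f2 did not pass. Cdt1 did not pass by DESeq2, with RLE size factors or with no filter (adjusted p = 0.0602, 0.0512 and 0.0717), and E2f2 passed as higher with a block on library number and with the trend on gene length removed.

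Among the 10 helicase genes, 1 was higher and 1 lower. Mcm7 was higher (log2 0.16, SE 0.042, adjusted p = 0.00769) and Mcm2 was lower. Mcm2 was at 294, 304, 291 and 299 CPM in the deficient libraries, against 331, 344, 326 and 335 CPM in wildtype, with every deficient library below every wildtype library (log2 -0.17, SE 0.040, adjusted p = 0.00289). The other 8 did not pass, and the median log2 change over all 10 was 0.00153. Mcm2 made up 10.6% ± 0.155 of the Mcm2 to Mcm7 level per kilobase in deficient cells and 11.8% ± 0.189 in wildtype cells (SD, n = 4), without overlap.

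Of the 12 priming, clamp and strand completion genes, 6 were higher in the deficient cells and 0 lower. Rfc5, a clamp loader subunit, was at 77.8, 78.7, 80.2 and 82.2 CPM in the deficient libraries, against 69.3, 68.5, 64.3 and 63.3 CPM in wildtype (log2 0.27, SE 0.047, adjusted p = 0.000280). Rpa2 was at 99.4, 105, 92.1 and 100.3 CPM in the deficient libraries, against 90.9, 87.7, 77.8 and 79.4 CPM in wildtype (log2 0.24, SE 0.058, adjusted p = 0.00351). The deficient libraries lay above the wildtype libraries for both genes. Pcna, Pola1, Prim1 and Rpa1 were higher by 1.14-, 1.14-, 1.14- and 1.09-fold.

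Of the 5 nucleotide genes, 3 were higher. Dut was at 207, 198, 196 and 184 CPM in the deficient libraries, against 170.1, 152, 164 and 157 CPM in wildtype (log2 0.29, SE 0.049, adjusted p = 0.000224). Tyms, whose substrate is the dUMP that Dut makes, was at 335, 345, 324 and 318 CPM in the deficient libraries, against 276, 271, 273 and 267 CPM in wildtype (log2 0.28, SE 0.041, adjusted p = 5.45e-05). Dut and Tyms did not overlap between the genotypes. Rrm2 was higher by 1.10-fold with overlapping groups (adjusted p = 0.0282), and Rrm1 and Ung did not pass, at log2 -0.061 and 0.10.

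**Figure D4:**
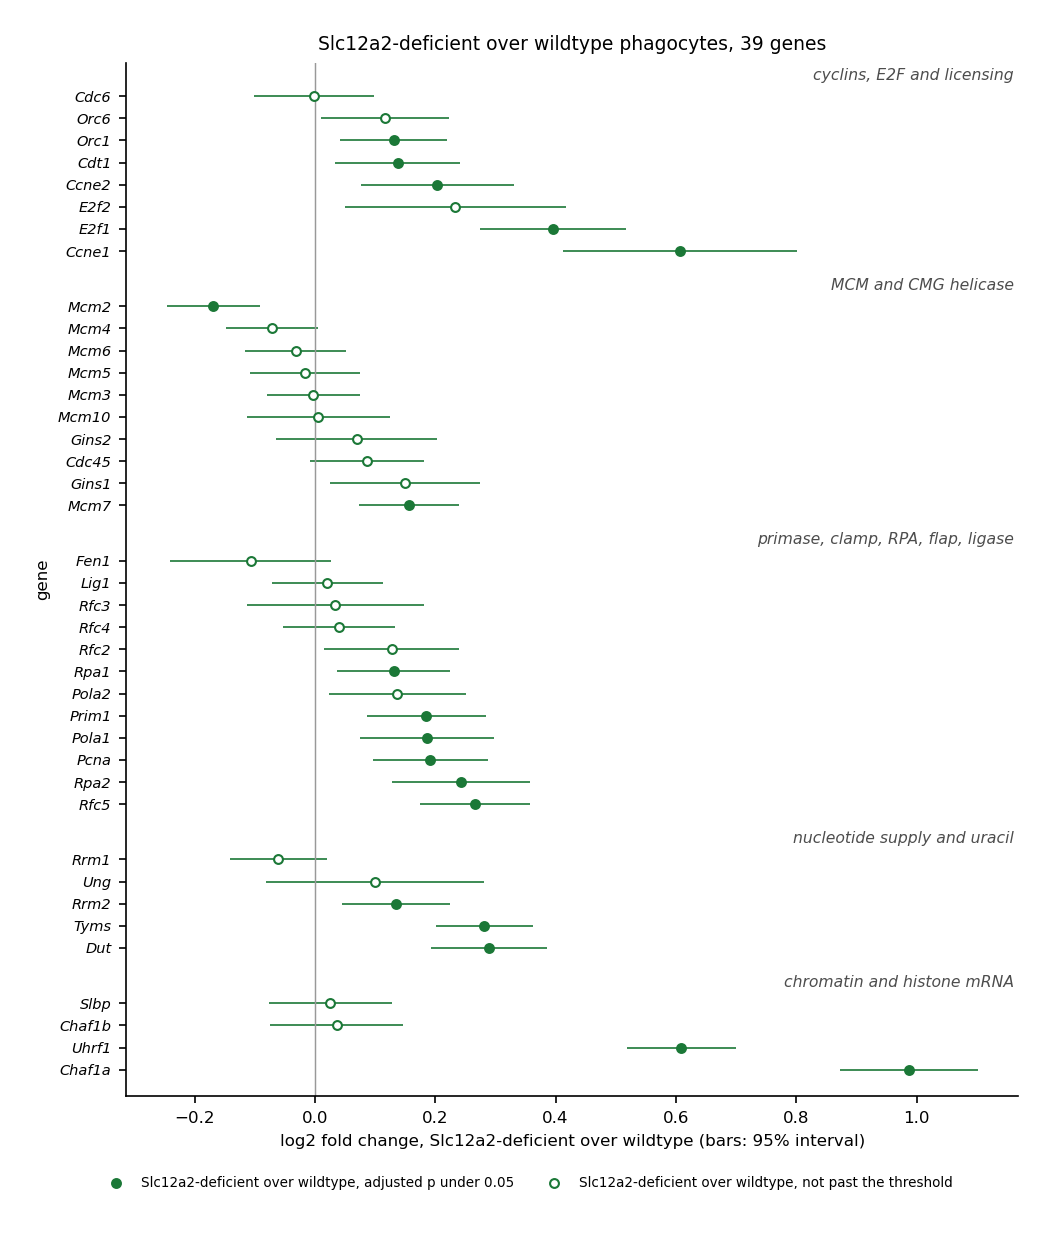
Log2 fold change of each of the 39 genes in Slc12a2-deficient over wildtype phagocytes, grouped by role, with 95% intervals. Filled points passed an adjusted p of 0.05, with 17 genes right of 0, led by Chaf1a at 0.99, and Mcm2 left of it at -0.17.

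The plot of genotype changes shows the 2 largest changes in the chromatin genes. Chaf1a was at 102, 121, 111 and 108 CPM in the deficient libraries, against 58.9, 58.1, 52.3 and 53.7 CPM in wildtype, a 1.98-fold higher level (log2 0.99, SE 0.059, adjusted p = 2.42e-09). Uhrf1 was at 182, 191, 194 and 181 CPM in the deficient libraries, against 128, 127, 115 and 121 CPM in wildtype (log2 0.61, SE 0.046, adjusted p = 4.2e-08). Every deficient library lay above every wildtype library for both genes. Chaf1b, which works in the same complex as Chaf1a, did not pass (log2 0.036, 95% interval -0.074 to 0.15), so that the level of Chaf1a per kilobase was 1.61 ± 0.0797 times that of Chaf1b in deficient cells and 0.831 ± 0.0435 times in wildtype cells (SD, n = 4). Slbp did not pass either, at log2 0.026.

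Chaf1a and Uhrf1 lie on the same scaffold of the genome assembly that the authors' tables use, and the genes around them were looked at after these values were seen. Of the 41 other genes tested on that scaffold, 38 were called higher in the deficient cells and 0 lower, with a median log2 change of 0.752 and a range of -0.55 to 2.55. The changes of Chaf1a and Uhrf1 thus lay within the range of their neighbours. In the cytochalasin D comparison, 3 of 42 other genes tested on the same scaffold were higher and 4 lower, with a median of -0.0117. With corpses present, the drug comparison had 5 of the 42 higher and 10 lower, with a median of -0.185. Chaf1a and Uhrf1 were lower in both drug comparisons. In RefSeq gene order, the 20 nearest tested genes of Uhrf1 and of Chaf1a had median log2 changes of 0.744 and 0.665 between the genotypes. For the other 37 genes the median over such neighbours lay between -0.174 for Rrm2 and 0.124 for Tyms, where Tyms and Ccne1 had 10 neighbours and the rest had 20. The part of this position in the levels of Chaf1a and Uhrf1 was not tested. Without them, 15 of the other 37 genes were higher in the deficient cells and 1 lower.

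**Figure D5:**
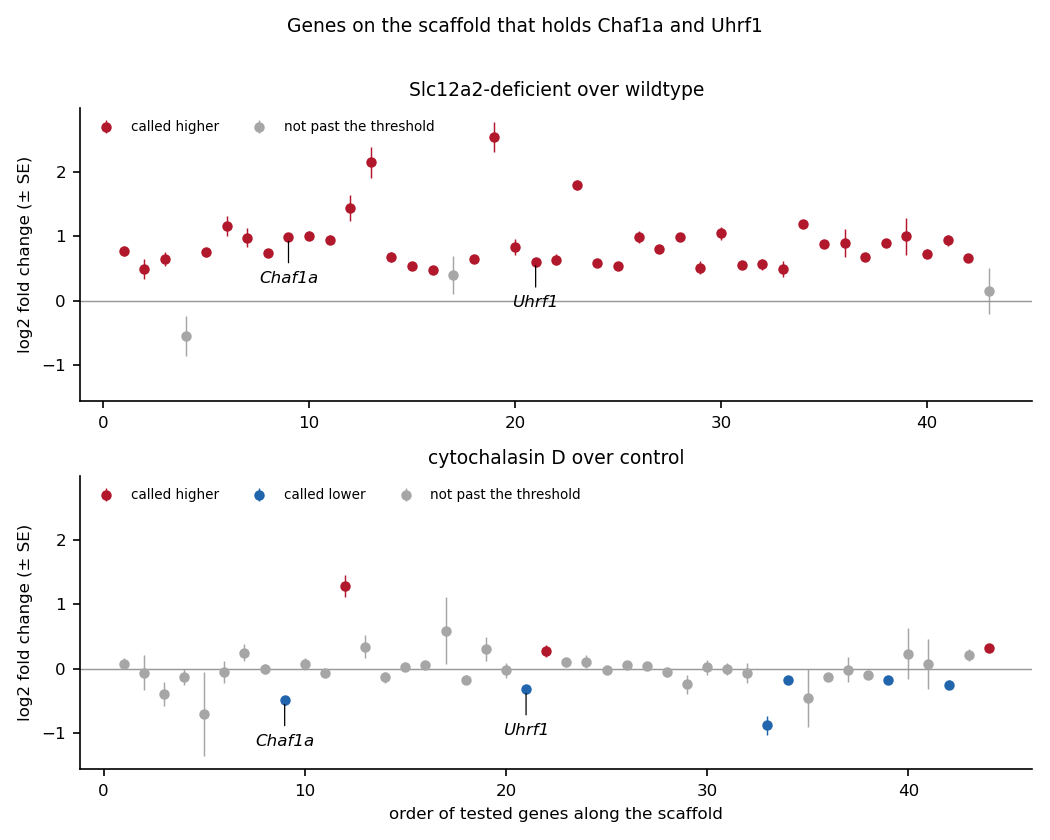
Log2 fold change (± SE) of every tested gene on the scaffold that holds Chaf1a and Uhrf1, in the order of the genes along it, for Slc12a2-deficient over wildtype cells (top) and cytochalasin D over control (bottom). At the top 38 of the 41 other genes were called higher, and at the bottom 3 of 42 were called higher and 4 lower.

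Of the 18 genotype calls, 13 passed with each library left out. The calls that did not were Ccne2, without deficient library 11 or wildtype library 14 (adjusted p up to 0.0789), Orc1 and Rpa1, without deficient library 15 or wildtype library 13 or 14 (up to 0.0930 and 0.134), Rrm2, without deficient library 11 or 12 or wildtype library 9, 13 or 14 (up to 0.0643), and Cdt1, without deficient library 12 or 15 or any 1 of the wildtype libraries (up to 0.124). At an adjusted p under 0.01, 11 of the 17 higher calls stood. The share of all genes called at that threshold is not given here, so the 11 cannot be set against it.

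The other genes of the same processes were counted in the genotypes as well. Of 13 initiation control genes, 6 were higher in the deficient cells and 0 lower, among them Cdk2, the kinase that cyclin E activates (1.22-fold, adjusted p = 0.000418). Of 8 other nucleotide supply genes, 6 were higher and 0 lower, led by Rrm2b, a p53-induced form of the small reductase subunit (2.05-fold, adjusted p = 2e-06). Of 13 repair genes, 5 were higher and 0 lower, with Msh6 higher by 1.85-fold. Of 18 polymerase and fork genes, 5 were higher and 4 lower, and Pold1, the catalytic subunit of polymerase delta, was 2.36-fold lower (adjusted p = 4.66e-10). Of 9 other licensing and helicase genes 4 were higher, and of 9 other chromatin and histone supply genes 5 were higher, with 0 lower in either list. Of 18 G1 control genes, 8 were higher and 2 lower, with Ccnd1 1.36-fold higher and Cdkn1a 1.31-fold lower (adjusted p = 0.000186 and 0.000811), and of 29 mitotic genes 7 were higher and 3 lower. Of 7 fibroblast markers tested, Vim was higher and 6 were lower, including Fn1 and Pdgfrb, and the part of these differences in the changes of the 39 genes was not tested.

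Set side by side, the 39 genes took different patterns over the comparisons. Of the 28 lower with cytochalasin D both without and with corpses, 14 were higher in Slc12a2-deficient cells, beside 17 of all 39. The same count over all genes tested was not made. Across the 39 genes the genotype changes had a Pearson correlation of -0.183 with the drug changes without corpses and -0.201 with those in their presence, a description over genes, which are not replicates. Rrm2 was called in 5 of the 6 comparisons, higher with corpses, lower with cytochalasin D without and with corpses, lower in the difference of corpse effects, and higher in deficient cells. Its call in the difference was lost without the 3 libraries that stood apart, and its call in deficient cells was lost without any of several single libraries, as given above. Ccne1, Cdt1 and Chaf1a were called higher with corpses, lower in both drug comparisons and higher in deficient cells. As given above, the calls with corpses were lost for each of these genes when certain single libraries were left out. The Cdt1 call in deficient cells had limits too, and Chaf1a lies on the scaffold where most other tested genes were higher in deficient cells. Mcm2 was called only between the genotypes, where it was lower. Gins1 and Rfc2 were called in no comparison, with log2 changes between -0.23 and 0.15 for Gins1 and between -0.11 and 0.13 for Rfc2.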

How the data were processed

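RNA of 24 libraries in 6 groups was analysed. Per the file headers, the deposited values are raw counts of read pairs. The authors ran featureCounts 1.5.0 on STAR alignments, summing exons by gene name with both ends aligned and no strand option, and the submitters' processing notes also name FastQC and DESeq2. Without strand, reads of overlapping genes cannot be told apart. The sources used here name no genome build or annotation. A row with a blank gene name, 0.0249% to 0.0445% and 1.13% to 1.65% of counts in the first and second experiment, was left out.

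The experiments were fitted separately in edgeR 4.0.16 under R 4.3.3 (TMM factors, filterByExpr with a minimum count of 10 and total of 15, quasi-likelihood F test, 1 mean per group, Benjamini-Hochberg adjustment over all genes tested, threshold 0.05). DESeq2 1.42.0, other size factors, no filter, a threshold of 0.01, a block and left-out libraries were the alternatives. The fit was also run on simulated counts with known changes. These were drawn with the same spread for every gene and with no library that stands apart. That run therefore cannot show how the fit handles the spread of the real libraries. Members and lists were chosen with earlier results of these data known. Values in every library are given for up to 8 called members per comparison with the largest changes and a mean of at least 4 CPM, and up to 3 genes are named per list and direction. Gene order came from the RefSeq table, to which 11650 of 13106 and 11536 of 13050 tested genes matched by symbol, gene number or synonym. No 2 libraries of a group held identical counts. The p-values measure the spread between these replicate cultures as labelled.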

Additional observations from a re-analysis of the deposited data

Results flagged for a closer look

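The level of Mcm6 in cytoD library 4, at 166.1 CPM, lay far from the nearest library of its group, at 159.3 CPM, relative to the range of the 4 libraries. It was the 1 case among 59 groups of 4 values looked at, and chance alone flags about 1 in 20. All 4 libraries remained below every control library.

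The effect of apoptotic cells differed with and without cytochalasin D, by the interaction test, for 2 of the 39 genes. Rrm2 had a difference of -0.27 on the log2 scale (adjusted p = 0.00745 by edgeR), and Slbp had a difference of -0.43 (adjusted p = 0.00981). Over all genes tested, 1.53% were called lower and 3.03% higher. Without the 3 libraries that stood apart, neither gene passed the same test (adjusted p = 0.0748 for Rrm2 and 0.0724 for Slbp).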

How the results depend on the processing

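No direction reversed under any alternative run. Among the values of single members called in a comparison, 1384 kept their call and 82 lost it, and for the genes of the other lists 2041 kept it and 280 lost it. At an adjusted p under 0.01, the members higher with apoptotic cells numbered 4, those higher with apoptotic cells under cytochalasin D 0, and those higher in deficient cells 11. For deficient cells, the count over all genes at this threshold is not given here. Over all genes this threshold gave 422 higher and 363 lower with apoptotic cells, 1152 higher and 1081 lower with cytochalasin D, 1369 lower with cytochalasin D in the presence of corpses, 321 higher and 211 lower with corpses under cytochalasin D, and 86 higher and 46 lower differences. For corpses under cytochalasin D, 1 member was higher with no filter and with the 8 compared libraries alone, where Orc6 lost its call, and 1 without the 3 libraries that stood apart, where Ccne2 lost its call, and 2 were lower by DESeq2 and with no filter, E2f2 being the addition. Over all genes that comparison gave 385 higher and 277 lower without the 3 libraries. For the difference of corpse effects, DESeq2 gave 4 members lower and 645 genes higher and 330 lower, no filter gave 385 genes lower, and leaving out the 3 libraries gave 0 members lower and 75 genes higher and 45 lower. The stricter threshold can only remove calls, and the cause of the other shifts was not tested.

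With 1 library left out at a time, members higher with apoptotic cells numbered 4 to 9 and lower 0, members lower with cytochalasin D 30 to 32 and higher 0 to 1, members lower with cytochalasin D in the presence of corpses 30 to 33, members higher with corpses under cytochalasin D 0 to 2 and lower 1 to 2, members with a lower difference 2 to 7, and members higher in deficient cells 13 to 20 and lower 1. Over all genes the ranges were 537 to 845 higher and 566 to 855 lower with apoptotic cells, 1465 to 1767 and 1401 to 1829 with cytochalasin D, 1722 to 2029 and 1717 to 2126 with cytochalasin D in the presence of corpses, 440 to 914 and 308 to 725 with corpses under cytochalasin D, 166 to 909 and 85 to 736 for the difference, and 2359 to 2861 and 2397 to 2829 in deficient cells.

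The replicate numbers were not shown to pair the samples. Correlations were taken between libraries of different groups, on log levels from which each gene's group mean had been removed. They therefore describe what is left of each profile, not the whole profile. Same-numbered libraries of the first experiment had such correlations of -0.056 to 0.227 over 24 pairs. Among libraries of other groups, 7 of 16 libraries correlated best with a library of their own number, and the number expected by chance was not computed. With the replicate block, 8 members were higher with apoptotic cells, 30 lower with cytochalasin D, 32 lower with cytochalasin D in the presence of corpses, 2 higher and 1 lower with corpses under cytochalasin D, and 3 had a lower difference. In the second experiment, the same measure was taken between deficient and wildtype libraries. Those numbered on the same side of 12 and 13 had correlations of 0.037 to 0.141, and those on different sides had correlations of -0.152 to -0.026. The labels do not say whether these numbers mark batches. The second principal component of that experiment held 7.39% of the variance. It was negative for every library numbered up to 12 and positive for every library from 13 on, in both genotypes. The main fit had no term for this split. With a block on library number there, 19 were higher and 1 lower in deficient cells, with Pola2 and E2f2 added. The shares of all genes called under either block are not given here, so these member counts cannot be set against them.

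A change under the threshold was not detectable at this depth and number of libraries, which does not show that the gene was equal.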
